A study of Mus musculus and Homo sapiens with 18 samples.

Results

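The 9 genes described here, Trp53, Rb1, Arid1a, Kmt2d, Stag2, Fgfr3, Pik3ca, Tsc1 and Ep300, are mouse counterparts of genes that are recurrently mutated in human bladder cancer. They were chosen by symbol, not by any measured value: 9 gene identifiers carried these symbols, among 55858 genes in the tumour table, and the same 9 identifiers were read in the table of the CUUC-G line. The tumour table also lists them as 73 transcripts among 147828. RNA sequencing libraries of 4 groups were used, 3 libraries per group. The first pair came from a genetically engineered mouse model, GEMM: samples named as relapse after chemotherapy with cisplatin and gemcitabine (relapsed tumours), and control samples of the model (control tumours). The design text speaks of collected tumours, while the labels enter GEMM as a cell line. They are called tumours below, which does not settle whether tissue or cultured cells were sequenced. The second pair was the mouse bladder line CUUC-G, which the labels likewise file under GEMM, carrying either an Igfbp5 guide (sgIgfbp5) or a control guide (sgScr). The labels call the guide samples a knockdown, and the design text calls them a knockout. No genotype, strain, age or engineered allele is given in the sources used here, so whether any of the 9 genes was itself altered in the model is not known, and RNA levels do not show it. Nothing in the labels says that the 3 samples of a group came from separate animals or cultures, so the p-values measure the spread between these samples.

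Human bladder carcinomas carry frequent alterations in a small number of systems. The products of Trp53 and Rb1 guard the cell cycle: p53 is a transcription factor that responds to DNA damage, and the retinoblastoma protein holds back E2F factors. ARID1A, KMT2D and EP300 act on chromatin as a subunit of the SWI/SNF remodelling complex, a histone H3 lysine 4 methyltransferase and a histone acetyltransferase, and STAG2 is a subunit of the cohesin ring that holds sister chromatids together and shapes chromatin loops. FGFR3 and PIK3CA are growth signalling genes that are usually activated by mutation, a receptor tyrosine kinase and the p110 alpha catalytic subunit of PI3-kinase, whereas TSC1 restrains mTOR downstream of that pathway.

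Total estimated counts lay between 18964942 and 21757109 in the tumour libraries and between 19210830 and 20729980 in the CUUC-G libraries. Igfbp5, the targeted gene, had 0.606, 0.393 and 0.470 CPM (counts scaled to the library total with TMM factors) in the sgIgfbp5 libraries, against 1.04, 2.56 and 2.31 CPM in the sgScr libraries, low in both groups. The tumour groups also differed in sex-linked genes. Xist averaged 483 ± 20.2 CPM in relapsed and 0.0845 ± 0.0634 CPM in control tumours (SD, n = 3 each), while Ddx3y on the Y chromosome had 0 counts in relapsed tumours and 74.2 ± 4.02 CPM in control tumours. Urothelial markers summed to 624 to 651 CPM in relapsed and 31.8 to 39.0 CPM in control tumours, with the defining markers Upk3a and Krt5 at 0 in both. The keratins Krt19 (mean 261 CPM) and Krt8 (142 CPM) led this sum in relapsed tumours. Of 10 tested urothelial markers, 6 were higher and 1 lower in relapsed tumours (edgeR adjusted p under 0.05). Over all genes tested, 36.6% were higher and 36.9% lower. Fibroblast and smooth muscle markers summed to 9884 to 10039 CPM in relapsed and 20889 to 21594 CPM in control tumours. Col1a1 and Col1a2 led this sum, at 5483 and 2343 CPM in relapsed and 9942 and 6573 CPM in control tumours. Of 12 tested genes of this list, 3 were higher and 8 lower in relapsed tumours. In CUUC-G the urothelial sum was 159 to 186 CPM with sgIgfbp5 and 670 to 755 CPM with sgScr. Krt8 and Krt19 led it, at 47.3 and 34.8 CPM with sgIgfbp5 and 165 and 313 CPM with sgScr. Of its 12 tested genes, 4 were higher and 7 lower with sgIgfbp5, against 36.5% and 34.3% of all genes tested. The fibroblast and smooth muscle sum was 4983 to 5623 CPM with sgIgfbp5 and 10597 to 10997 CPM with sgScr. Col1a1 led it, at 2820 and 5939 CPM, and of 11 tested genes 2 were higher and 9 lower with sgIgfbp5. Immune and vascular markers summed to 153 to 165 CPM in relapsed and 2.37 to 2.89 CPM in control tumours, and to 8.36 to 9.05 CPM with sgIgfbp5 and 151 to 159 CPM with sgScr. Nearly all of the larger sums was Kdr, at 156 ± 5.69 CPM in relapsed tumours and 153 ± 3.98 CPM with sgScr. The leukocyte gene Cd3e and the vascular gene Tie1 had 0 counts in all 4 groups. The urothelial sum, the fibroblast and smooth muscle sum, and Kdr differed between the groups of both comparisons without overlap. Their part in the results on the 9 genes was not tested. In relapsed tumours the leukocyte genes Ptprc, Itgam and Adgre1 also had 0 counts. In control tumours every immune and vascular marker except Kdr averaged at most 0.456 CPM. Whether these libraries hold tissue or cultured cells was not tested. If they came from bulk tissue, fewer cells of a type and less RNA per cell could not be told apart.

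Measured per length, in TPM (transcript abundance scaled by length and by the library total), Stag2 was the most abundant of the 9 genes in relapsed tumours, with a mean of 33.9 TPM, and Trp53 in control tumours, with 46.1 TPM. Trp53 also led in the sgIgfbp5 cells at a mean of 122 TPM, and Stag2 in the sgScr cells at 30.7 TPM. The order at the bottom was the same in all 4 groups: Tsc1 was seventh, Rb1 eighth and Fgfr3 last. Fgfr3 averaged 0.846 TPM in relapsed and 2.32 TPM in control tumours, and 2.45 TPM in sgIgfbp5 and 1.09 TPM in sgScr cells. In relapsed tumours the neighbours Pik3ca (22.7 TPM), Trp53 (20.6 TPM), Ep300 (20.4 TPM) and Arid1a (17.5 TPM) overlapped in their libraries, each with the next. In control tumours only Ep300 (35.0 TPM) and Stag2 (33.5 TPM) did so. Short retained-intron transcripts weigh on the places of Pik3ca and Ep300: over protein-coding transcripts alone, Pik3ca averaged 14.4 ± 0.119 TPM in relapsed and 28.1 ± 1.21 TPM in control tumours, and Ep300 14.2 ± 0.554 TPM in relapsed and 22.8 ± 1.89 TPM in control tumours (SD, n = 3 each). On that measure both lay below Trp53 (19.2 TPM) and Arid1a (17.4 TPM) in relapsed tumours, and Ep300 lay below Stag2 (33.4 TPM), Pik3ca and Arid1a (25.4 TPM) in control tumours. In sgIgfbp5 cells Arid1a (42.6 TPM) overlapped with Kmt2d (37.0 TPM) and Kmt2d with Ep300 (35.6 TPM), as did Stag2 with Pik3ca and Rb1 with Fgfr3. In sgScr cells the run from Trp53 (24.8 TPM) through Pik3ca, Arid1a and Ep300 to Kmt2d (13.2 TPM) overlapped link by link. Values for CUUC-G were given per gene, so protein-coding transcripts could not be read alone there. Pik3ca had 28.2, 25 and 16 TPM in the sgScr libraries, at 65.4, 62.3 and 56.8 CPM. The part of short transcripts in the CUUC-G order was not tested.

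**Figure D1:**
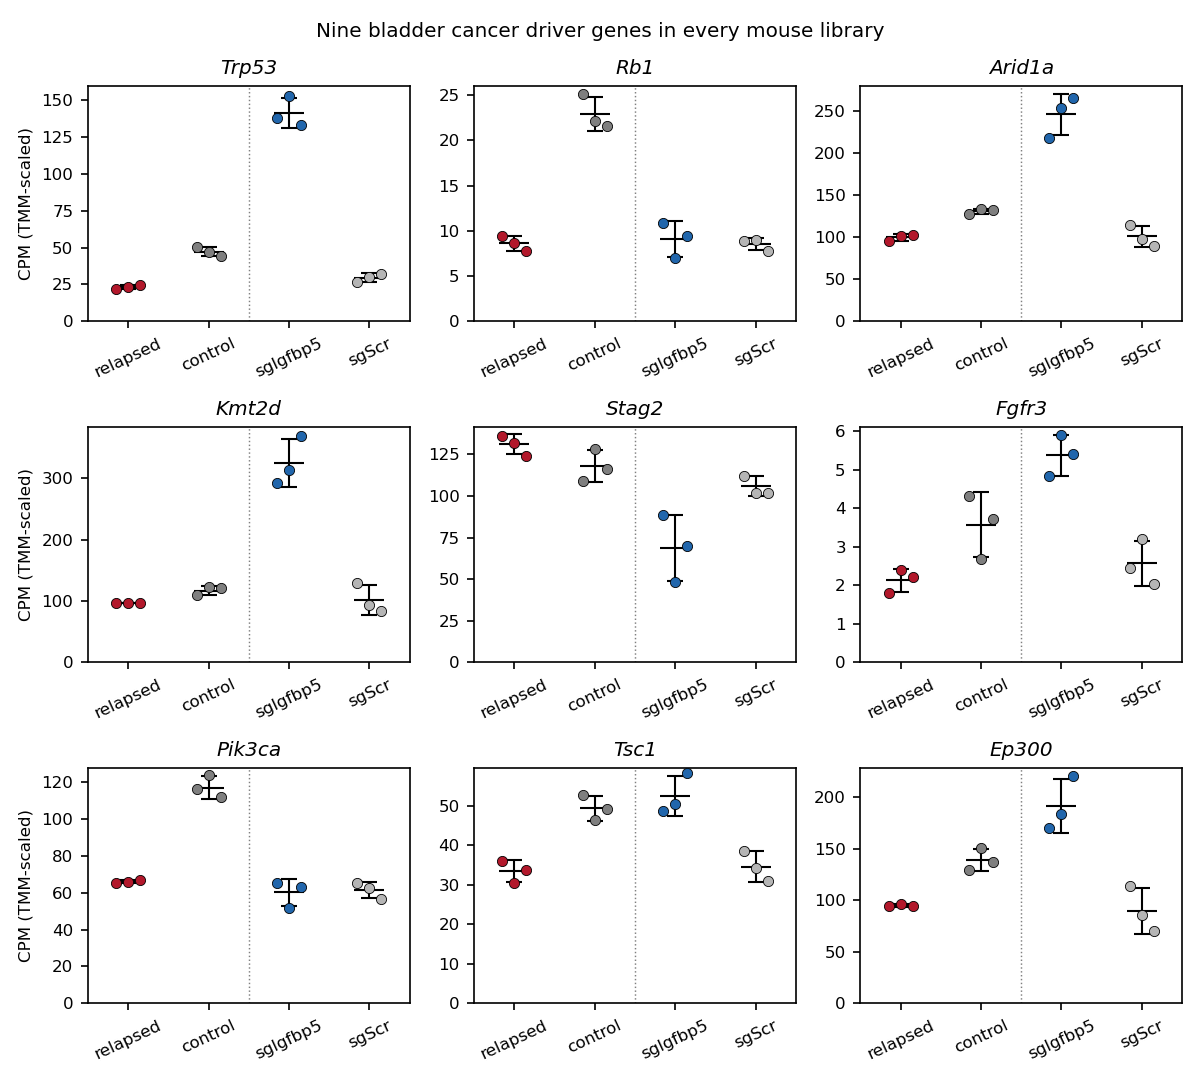
CPM (TMM-scaled) of each of the 9 genes in every mouse library, with the mean and SD (n = 3) as bars. The dotted line separates the tumour table from the CUUC-G table, which were normalised separately. Trp53 lies between 22.1 and 24.7 CPM in relapsed tumours, below all control tumours, and between 133 and 153 CPM in sgIgfbp5 cells, above all sgScr cells.

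The first comparison asked how tumours that relapsed after chemotherapy differed from control tumours. These groups also differed in Xist and Y-linked genes, so sex and relapse cannot be told apart for any of the 9 genes. Of the 9 genes, 8 fell and 1, Stag2, rose (edgeR quasi-likelihood test, adjusted p under 0.05, adjusted over all genes). Across the 14373 genes tested, 73.5% were called, 36.9% falling and 36.6% rising, so being called was in itself common, and the median log2 fold change was -0.56 for the 9 genes and 0.00 for all genes tested. On log2(TPM + 1) the calls over all genes were less even, with 3518 higher and 5129 lower and a median of -0.12 (limma). The library values of relapsed and control tumours did not overlap for 8 of the 9 genes, against 75.3% of all genes tested. The falls ran from 1.21-fold for Kmt2d to 2.67-fold for Rb1. The second comparison asked what targeting Igfbp5 changed in CUUC-G. There, 6 of the 9 genes rose, Stag2 fell, and Rb1 and Pik3ca did not pass the test, against 70.8% called among 14553 genes tested, 36.5% higher and 34.3% lower. The median log2 fold change was 1.06 for the 9 genes and 0.06 for all genes tested, and the groups did not overlap for 7 of the 9 genes, against 73.9% of all genes. The 7 genes called in both comparisons all went in opposite directions in them, 6 being lower in relapsed tumours and higher with sgIgfbp5. Opposite calls were the common pattern: of 7947 genes called in both, 83.4% went in opposite directions, and 40.2% were lower in relapsed tumours and higher with sgIgfbp5. Relapsed tumours and sgScr cells, normalised separately, had close mean CPM for most of the 9 genes. These were Arid1a 100 and 101, Kmt2d 96.6 and 102, Ep300 95.3 and 90.1, Tsc1 33.4 and 34.5, and Rb1 8.61 and 8.55. Pik3ca had 66.0 and 61.5, Fgfr3 2.13 and 2.57, Trp53 23.4 and 29.7, and Stag2 131 and 106. The comparisons set these groups on opposite sides, so opposite signs were not tested as separate responses.

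Trp53 (ENSMUSG00000059552.14; GRCm38 chromosome 11, 69580359 to 69591873, plus strand) had 22.1, 23.3 and 24.7 CPM in relapsed tumours, against 50.6, 47.0 and 44.4 CPM in control tumours. Every relapsed library lay below every control library. Its log2 fold change was -1.02 ± 0.07 (SE; edgeR adjusted p = 9.2e-13), a 2.03-fold lower level. In CUUC-G it had 138, 153 and 133 CPM with sgIgfbp5, against 26.4, 30.2 and 32.4 CPM with sgScr. This was the largest difference among the 9 genes in CUUC-G, a log2 fold change of 2.25 ± 0.10 (edgeR adjusted p = 3.61e-09) or 4.77-fold. Neither change lost its call under any of the 16 alternatives run at relapse or the 15 run in CUUC-G, where the log2 fold change stayed between -1.18 and -0.97 and between 2.14 and 2.36.

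Most Trp53 counts in the tumours came from a pair of protein-coding isoforms with different ends. They are shown because they encode different ends of the protein. Trp53-201 encodes 387 residues. Trp53-202 starts its last exon at 69591254 in place of 69591350, takes in 96 extra bases and stops earlier, after 378 residues; in mouse it is known as the alternatively spliced form, which lacks the basic regulatory end of p53. The last 30 shared coding bases are in lower case, and the coding bases that differ, up to and including the stop codon, are in capitals (GENCODE M21 transcripts on GRCm38, plus strand; chr11:69590734-69591431 for Trp53-201 and chr11:69590734-69591308 for Trp53-202, with the intron left out).
Trp53-201: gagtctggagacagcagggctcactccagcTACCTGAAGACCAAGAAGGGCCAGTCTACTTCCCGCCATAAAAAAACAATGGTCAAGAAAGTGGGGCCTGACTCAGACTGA
Trp53-202: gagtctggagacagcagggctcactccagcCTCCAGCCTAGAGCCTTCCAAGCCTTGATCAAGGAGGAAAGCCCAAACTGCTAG
Both isoforms fell. Trp53-201 had 309, 306 and 367 estimated counts in relapsed tumours, against 863, 643 and 629 in control tumours, a log2 fold change of -1.11 ± 0.12 (edgeR on transcripts, adjusted p = 0.000988). Trp53-202 had 77.8, 113 and 98.7 counts in relapsed and 177, 187 and 191 in control tumours, a log2 fold change of -0.94 ± 0.20 (edgeR adjusted p = 0.016). The share of Trp53-202 was close in both groups, at 20.4% ± 3.38 of the Trp53 counts in relapsed and 19.5% ± 3.06 in control tumours (SD, n = 3 each). The largest shift in share was that of Trp53-201, 69.4% ± 3.82 in relapsed and 73.7% ± 3.58 in control tumours, and the share test gave an adjusted p of 1 for both (edgeR diffSpliceDGE). The third isoform, Trp53-205, has no defined coding sequence, held 10% ± 2.5 of the counts in relapsed and 6.78% ± 0.522 in control tumours, and did not pass the test (edgeR adjusted p = 0.291).

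The promoter of Trp53 is shown because Trp53 was the only one of the 9 genes with a log2 fold change beyond 1 in size in both comparisons. It is the RefSeq window of 300 bases around the start on GRCm38.p6, chr11:69580109-69580408, plus strand. Capitals mark matches, on either strand, to TATAAA and to CCAAT; the third motif searched, GGGCGG, is not in this window.
Trp53 promoter: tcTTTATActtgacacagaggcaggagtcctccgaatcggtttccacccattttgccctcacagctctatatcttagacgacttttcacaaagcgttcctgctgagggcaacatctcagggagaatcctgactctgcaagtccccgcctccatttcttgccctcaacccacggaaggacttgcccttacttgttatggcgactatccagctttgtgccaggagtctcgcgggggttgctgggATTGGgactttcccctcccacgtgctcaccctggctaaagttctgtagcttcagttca
RefSeq promoters were found for 7 of the 9 genes. GGGCGG occurred in those of 5 of them, Arid1a, Ep300, Fgfr3, Kmt2d and Pik3ca, and in 35.7% of all 32851 promoters. CCAAT occurred in those of Trp53 and Fgfr3 and in 37.4% of all promoters, and TATAAA in that of Trp53 alone among the 7 and in 13.6% of all.

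Of the partners of p53, Mdm4, which holds p53 inactive, moved with Trp53. It averaged 54.1 ± 4.58 CPM in relapsed and 108 ± 4.54 CPM in control tumours (log2 fold change -0.99 ± 0.06; edgeR adjusted p = 5.03e-15), and 111 ± 17.5 CPM with sgIgfbp5 and 46.3 ± 6.03 CPM with sgScr (1.26 ± 0.13; edgeR adjusted p = 9.47e-06). Mdm2, the main ubiquitin ligase for p53, was not called in either comparison, with log2 fold changes of 0.03 ± 0.05 and -0.19 ± 0.08 (edgeR adjusted p = 0.623 and 0.0501). In CUUC-G it was called lower in 4 of 15 alternatives, with an adjusted p as low as 0.0101, and was above 0 on the TPM scales. The p53 relative Trp63 was below 2 CPM in every group and not called. The counts of pathway genes given here and for the other 8 pathways include the gene itself that the list surrounds. Beside each of them stand the shares over all genes tested, 36.6% rising and 36.9% falling at relapse. With sgIgfbp5 those shares were 36.5% and 34.3%. Of 18 tested genes of p53 control, 3 rose and 9 fell in relapsed tumours (median log2 fold change -0.19), and 10 rose and 4 fell with sgIgfbp5 (median 0.39). The relapsed extremes by p were Ppp1r13l, an inhibitor of p53, at 0.49 ± 0.11, a call lost in 3 of 15 alternatives, and Cop1, a ubiquitin ligase, at -0.74 ± 0.04 on the log2 scale. With sgIgfbp5 they were Trp53bp2, which enhances p53 activity, at 1.46 ± 0.08 and the checkpoint kinase Chek1 at -0.57 ± 0.13, a call lost in 1 of 15.

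Rb1 (ENSMUSG00000022105.7; chromosome 14, 73183673 to 73325822, minus strand) showed the largest change of the 9 genes at relapse. It had 9.43, 8.67 and 7.75 CPM in relapsed tumours, against 25.1, 22.1 and 21.6 CPM in control tumours, well apart and with little spread. The log2 fold change was -1.41 ± 0.11 (edgeR adjusted p = 1.85e-12). In CUUC-G it had 10.9, 6.98 and 9.44 CPM with sgIgfbp5, against 8.86, 8.98 and 7.80 CPM with sgScr. Here the groups overlapped, and the log2 fold change of 0.09 ± 0.17 was not called (edgeR adjusted p = 0.651). The spread among the 3 sgIgfbp5 libraries (SD 1.96 CPM) exceeded the difference between the means, and without sgIgfbp5 replicate 1 the value was -0.07. Nearly all Rb1 counts came from Rb1-201, the only protein-coding isoform listed, with 99.6% ± 0.35 of the counts in relapsed and 99.7% ± 0.408 in control tumours.

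The relatives of Rb1 fell with it at relapse. Rbl1, or p107, averaged 30.7 ± 0.685 CPM in relapsed and 44.9 ± 0.757 CPM in control tumours (log2 fold change -0.55 ± 0.07; edgeR adjusted p = 2.76e-08). Rbl2, or p130, averaged 25.8 ± 2.23 CPM in relapsed and 39.3 ± 2.15 CPM in control tumours (-0.61 ± 0.08; edgeR adjusted p = 5.62e-08). The RNAs of all 3 pocket protein genes were thus lower in relapsed tumours. In CUUC-G they parted, Rbl1 falling by 0.43 ± 0.11 and Rbl2 rising by 0.45 ± 0.09 on the log2 scale (edgeR adjusted p = 0.00388 and 0.0011), calls that were lost in 3 and 1 of 15 alternatives. The cell cycle factor E2f1, which the pocket protein family binds, was not called at relapse (-0.04 ± 0.06; edgeR adjusted p = 0.539), except on the 3 TPM scales, at -0.19, and fell with sgIgfbp5 (-0.48 ± 0.08; edgeR adjusted p = 0.000334). Of 19 tested genes of the RB and E2F list, 9 rose and 7 fell at relapse (median log2 fold change 0.01, or 0.11 without Rb1), and 4 rose and 9 fell with sgIgfbp5 (median -0.18). The E2F partner subunits went opposite ways at relapse, Tfdp1 at 0.65 ± 0.03 and Tfdp2 at -0.96 ± 0.06. With sgIgfbp5 the histone-binding protein Rbbp4 was at 0.76 ± 0.07 and E2f8, a repressor of the family, at -2.36 ± 0.15.

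Arid1a (ENSMUSG00000007880.17; chromosome 4, 133679008 to 133756769, minus strand) had 95.7, 102 and 103 CPM in relapsed tumours, against 128, 133 and 132 CPM in control tumours. The groups were close and tight, and the log2 fold change was -0.38 ± 0.04 (edgeR adjusted p = 5.86e-09). In sgIgfbp5 cells it had 218, 254 and 266 CPM, against 114, 98.4 and 90.1 CPM with sgScr. That is 2.44-fold higher, a log2 fold change of 1.29 ± 0.10 (edgeR adjusted p = 7.18e-07). In the tumours the full-length isoform Arid1a-205, of 8187 bases, carried 94.7% ± 5.03 of the counts in relapsed and 92.0% ± 1.75 in control tumours. Its close relative Arid1a-202 had 29.0, 20.5 and 178 counts in relapsed and 153, 225 and 191 in control tumours; only relapsed library 3 reached the control range, and the transcript was not called (edgeR adjusted p = 0.297).

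The related ARID subunits of SWI/SNF, Arid1b and Arid2, moved the same way as Arid1a in both comparisons. Arid1b, the paralogue that takes its place in the complex, averaged 56.3 ± 1.21 CPM in relapsed and 84.2 ± 6.18 CPM in control tumours (log2 fold change -0.58 ± 0.06; edgeR adjusted p = 4.14e-10). With sgIgfbp5 it averaged 118 ± 6.55 CPM, against 53.1 ± 6.21 CPM with sgScr (1.15 ± 0.09; edgeR adjusted p = 7.04e-07). Arid2, of the PBAF form of the complex, had log2 fold changes of -0.84 ± 0.05 and 1.27 ± 0.11 (edgeR adjusted p = 1.15e-15 and 1.68e-06). The motor subunit Smarca4 went the other way, 0.24 ± 0.04 at relapse and -0.29 ± 0.07 with sgIgfbp5 (edgeR adjusted p = 9.89e-07 and 0.00494), calls lost in 3 and 4 of 15 alternatives. Of 26 tested SWI/SNF genes, 9 rose and 11 fell at relapse (median -0.10, or -0.05 without Arid1a), and 14 rose and 6 fell with sgIgfbp5 (median 0.32, or 0.20 without Arid1a). At relapse Ss18 was at 0.60 ± 0.05 and Phf10, another PBAF subunit, at -1.48 ± 0.04. With sgIgfbp5 Dpf2 was at 1.43 ± 0.08 and Brd9, of the non-canonical form, at -0.62 ± 0.09.

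Kmt2d (ENSMUSG00000048154.18; chromosome 15, 98831669 to 98871204, minus strand) had 95.9, 96.8 and 97.1 CPM in relapsed tumours, against 109, 122 and 121 CPM in control tumours. Its fall, a log2 fold change of -0.28 ± 0.05 (edgeR adjusted p = 5.65e-06), was the smallest of the 8. With sgIgfbp5 it had 293, 313 and 369 CPM, against 130, 94.1 and 83.4 CPM with sgScr, 3.17-fold higher (log2 fold change 1.66 ± 0.16; edgeR adjusted p = 6.99e-06). Among the 9 genes only Trp53 changed more in CUUC-G. The long coding isoform Kmt2d-201, of 19823 bases, carried 91.8% ± 5.88 of the counts in relapsed and 97.1% ± 1.81 in control tumours and fell by 0.36 ± 0.07 on the log2 scale (edgeR adjusted p = 0.00868). Kmt2d-202, an isoform of 19805 bases, had 151, 0 and 227 counts in relapsed and 0, 0 and 56.8 in control tumours. It had the smallest unadjusted p of any share among the 9 genes, 0.0765, and an adjusted p of 0.875 (edgeR diffSpliceDGE). On the TPM scale a short isoform weighs more: Kmt2d-204, of 899 bases, had 4.29, 3.05 and 3.59 TPM from 37.8, 27 and 32.2 counts in relapsed tumours, beside 6.14, 6.83 and 6.0 TPM of Kmt2d-201.

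Kmt2c, the paralogue of Kmt2d, and Ncoa6, a subunit of the same complexes, moved with it. Kmt2c averaged 38.9 ± 4.08 CPM in relapsed and 64.9 ± 4.86 CPM in control tumours (log2 fold change -0.74 ± 0.07; edgeR adjusted p = 1.33e-09), and 91.0 ± 18.1 CPM with sgIgfbp5 and 36.2 ± 10.3 CPM with sgScr (1.33 ± 0.20; edgeR adjusted p = 0.000218). Ncoa6 was at -0.74 ± 0.05 and 0.94 ± 0.13 (edgeR adjusted p = 6.13e-13 and 8.75e-05). Kdm6a, the H3 lysine 27 demethylase of these complexes, is X-linked and is known to escape X inactivation in mouse. It averaged 36.1 ± 0.641 CPM in relapsed and 31.7 ± 1.72 CPM in control tumours (0.19 ± 0.07; edgeR adjusted p = 0.017), which turned to -0.21 on log2(TPM + 1) (limma adjusted p = 0.0409), so its direction at relapse depended on the scale. With the Xist-positive relapsed and the Y-positive control libraries, sex and relapse cannot be told apart for this or any other gene. With sgIgfbp5 Kdm6a rose by 0.63 ± 0.13 (edgeR adjusted p = 0.000975). In the list of 19 tested KMT2 complex genes, 6 rose and 7 fell at relapse (median -0.03), and 11 rose and 2 fell with sgIgfbp5 (median 0.53, or 0.39 without Kmt2d). Wdr5, a core subunit, was at -0.56 ± 0.05 at relapse and at 1.16 ± 0.07 with sgIgfbp5. Men1, or menin, was at 0.64 ± 0.06 at relapse, and Psip1, a chromatin tether, at -0.84 ± 0.13 with sgIgfbp5.

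Ep300 (ENSMUSG00000055024.13; chromosome 15, 81585351 to 81652077, plus strand) had 94.8, 96.7 and 94.5 CPM in relapsed tumours, against 130, 151 and 137 CPM in control tumours, with no overlap. The log2 fold change was -0.55 ± 0.05 (edgeR adjusted p = 6.09e-11). With sgIgfbp5 it had 170, 184 and 221 CPM, against 114, 85.8 and 70.2 CPM with sgScr (1.09 ± 0.17; edgeR adjusted p = 0.000222). Both CUUC-G groups were spread, and the same libraries stood out for Arid1a, Kmt2d, Tsc1 and Ep300. In CPM, sgIgfbp5 replicate 3 was the highest and sgScr replicate 3 the lowest of its group for each of these genes. The same held on TPM, except that Kmt2d had 12.9, 13.1 and 13.7 TPM in the sgScr libraries. Ep300-201 carried 96.1% ± 1.34 of the counts in relapsed and 96.3% ± 0.832 in control tumours. Its closest relative, Crebbp, was not lower at relapse. Crebbp averaged 60.5 ± 5.6 CPM in relapsed and 53.5 ± 4.49 CPM in control tumours, with overlapping libraries and a log2 fold change of 0.18 ± 0.07 (edgeR adjusted p = 0.0251) whose call was lost in 8 of 15 alternatives, and it was not called with sgIgfbp5 (0.24 ± 0.14; edgeR adjusted p = 0.143), where 2 of 15 alternatives called it higher.

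Kat2b, another acetyltransferase, was at 0.23 ± 0.06 at relapse and at -1.02 ± 0.09 with sgIgfbp5 (edgeR adjusted p = 0.00212 and 1.24e-06), each lost in 3 of 15 alternatives. Cited2, which binds p300 and CBP, was not called at relapse (0.07 ± 0.05; edgeR adjusted p = 0.193) and rose with sgIgfbp5 to 221 ± 10.6 CPM, against 107 ± 1.87 CPM with sgScr. Of 16 tested histone acetyltransferase genes, 6 rose and 7 fell at relapse (median -0.03, or 0.00 without Ep300), and 10 rose and 3 fell with sgIgfbp5 (median 0.30). Hat1 was at 0.48 ± 0.05 and -0.82 ± 0.08, and the nuclear receptor coactivator Ncoa1 at -1.68 ± 0.10 and 2.21 ± 0.10.

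Stag2 (ENSMUSG00000025862.15; chromosome X, 42149317 to 42277185, plus strand) was the exception in both comparisons. It had 136, 132 and 124 CPM in relapsed tumours, against 109, 128 and 116 CPM in control tumours, and control library 2 lay inside the relapsed range. The rise of 0.15 ± 0.05 on the log2 scale (edgeR adjusted p = 0.00884) is the smallest change of the 9 genes and the least secure: the adjusted p was 0.0661 without relapsed replicate 1, 0.0758 without control replicate 1 and 0.0554 without control replicate 3, and on log2(TPM + 1) the difference was 0.02 (limma adjusted p = 0.842). In sgIgfbp5 cells it had 88.3, 48.1 and 69.7 CPM, against 112, 102 and 102 CPM with sgScr, a log2 fold change of -0.62 ± 0.18 (edgeR adjusted p = 0.0114). The fall lost its call without sgScr replicate 1 (adjusted p = 0.0681). Xist, the RNA that silences an X chromosome, was present in both CUUC-G groups, at 1426 ± 394 CPM with sgIgfbp5 and 411 ± 96.5 CPM with sgScr, and in relapsed but not control tumours; its part in the Stag2 values was not tested. Stag2-201 and Stag2-203 shared nearly all counts in the tumours. Stag2-203 had 485, 422 and 585 counts in relapsed and 357, 350 and 206 in control tumours, no overlap but no call (log2 fold change 0.71 ± 0.24; edgeR adjusted p = 0.0735). The share of Stag2-201 was 80.5% ± 4.58 in relapsed and 87.2% ± 3.26 in control tumours (edgeR diffSpliceDGE adjusted p = 1).

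The 3 cohesin partners were called in both comparisons. Stag1, the alternative subunit that takes the place of Stag2 in the ring, averaged 102 ± 4.01 CPM in relapsed and 57.6 ± 4.82 CPM in control tumours (log2 fold change 0.82 ± 0.06; edgeR adjusted p = 3.44e-13), and 29.4 ± 5.68 CPM with sgIgfbp5 and 88.9 ± 3.64 CPM with sgScr (-1.60 ± 0.12; edgeR adjusted p = 6.69e-07). Smc1a, an X-linked ring subunit, went the same way, 0.40 ± 0.04 at relapse and -1.05 ± 0.11 with sgIgfbp5 (edgeR adjusted p = 1.29e-09 and 1.13e-05). Rad21, which closes the ring, went the opposite way, -0.54 ± 0.03 and 0.38 ± 0.07 (edgeR adjusted p = 4.22e-14 and 0.000386). Of 17 tested cohesin genes, 10 rose and 4 fell at relapse (median 0.38), and 4 rose and 10 fell with sgIgfbp5 (median -0.45). Smc3, the other large ring subunit, rose by 1.31 ± 0.04 at relapse, and Cdca5, or sororin, fell by 1.26 ± 0.09 with sgIgfbp5. Hdac8, which recycles cohesin by deacetylating SMC3, was at -1.87 ± 0.11 at relapse and at 1.34 ± 0.13 with sgIgfbp5.

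**Figure D2:**
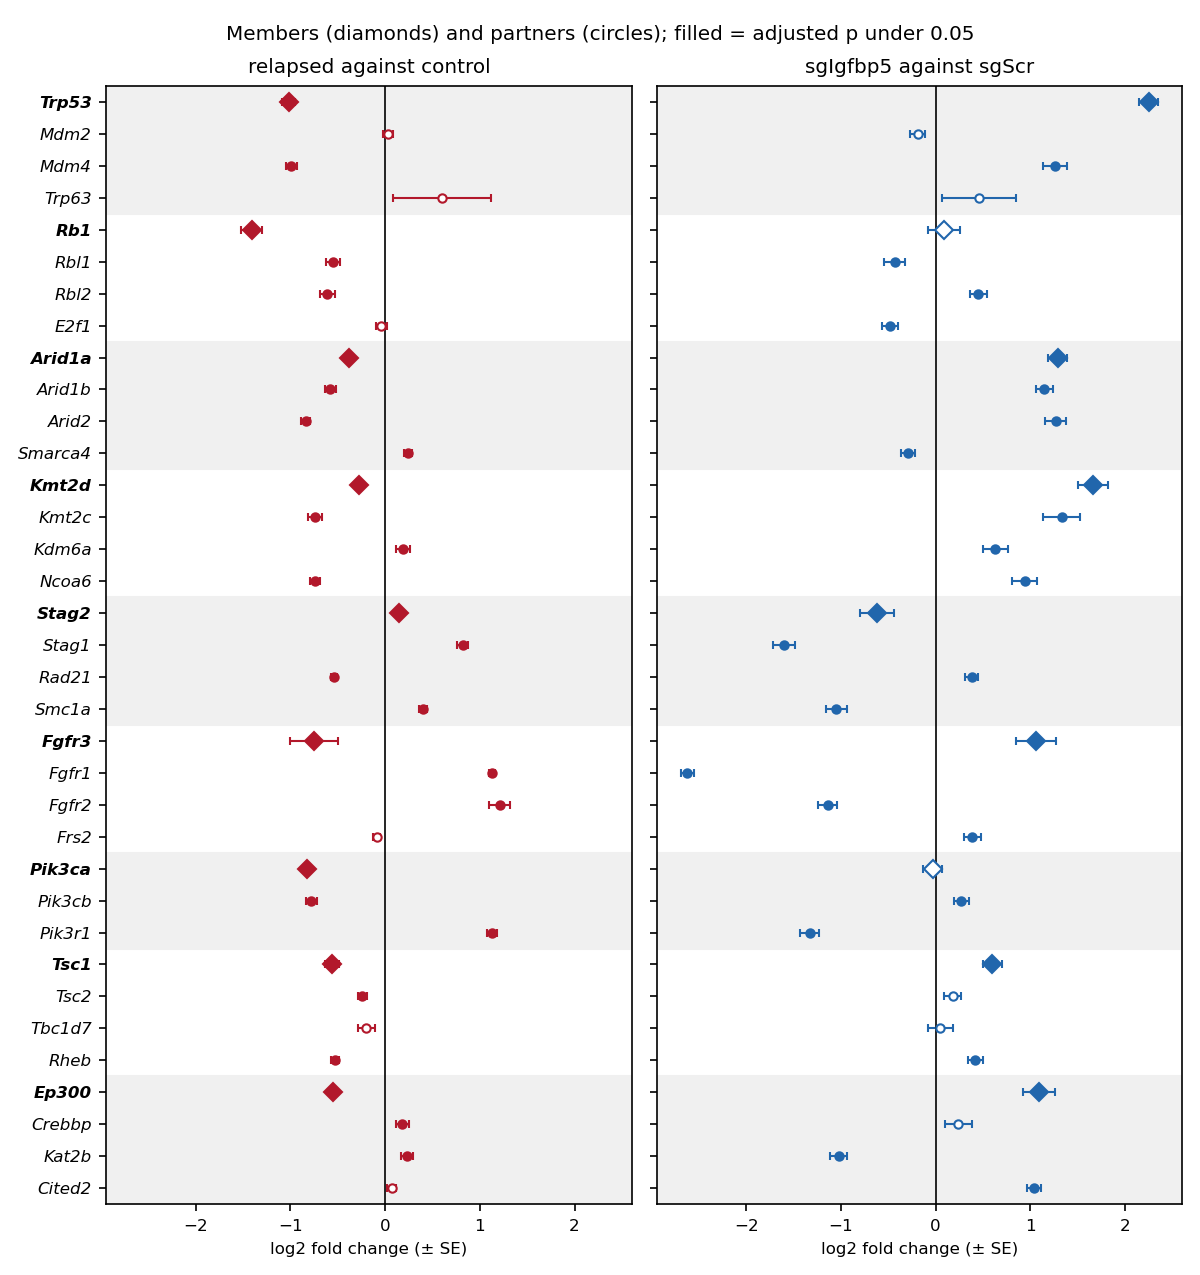
Log2 fold changes (± SE) of the 9 genes (diamonds, bold) and partners of each (circles), relapsed against control on the left and sgIgfbp5 against sgScr on the right. Filled symbols passed an edgeR adjusted p of 0.05; Fgfr1, for example, is at 1.13 at relapse and at -2.62 with sgIgfbp5, while Fgfr3 is at -0.75 and 1.06.

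Fgfr3 (ENSMUSG00000054252.19; chromosome 5, 33721674 to 33737068, plus strand) was scarce. It rested on 36, 48 and 45 estimated counts in relapsed tumours and 95, 51 and 74 in control tumours, or 1.80, 2.39 and 2.21 CPM in relapsed against 4.33, 2.68 and 3.72 CPM in control tumours. The groups did not overlap, but relapsed library 2 and control library 2 were close. The log2 fold change was -0.75 ± 0.25 (edgeR adjusted p = 0.00909), and without control replicate 1 it was -0.59 and not called (adjusted p = 0.0637). In CUUC-G Fgfr3 had 4.85, 5.90 and 5.40 CPM with sgIgfbp5, against 2.45, 3.21 and 2.04 CPM with sgScr, a log2 fold change of 1.06 ± 0.21 (edgeR adjusted p = 0.00082). At this depth the isoform estimates were not stable: among 17 listed isoforms, Fgfr3-211 took 0, 0 and 94.9% of the counts in relapsed tumours and 0 in every control tumour, while Fgfr3-209 took 0, 15 and 0% in relapsed and 0, 27 and 79.6% in control tumours. No isoform led in every library of a group, so no isoform is singled out for Fgfr3.

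The receptors Fgfr1 and Fgfr2 went the opposite way to Fgfr3 in both comparisons. Fgfr1 averaged 323 ± 2.22 CPM in relapsed and 148 ± 2.04 CPM in control tumours (log2 fold change 1.13 ± 0.03; edgeR adjusted p = 4.22e-21), and 58.5 ± 3.32 CPM with sgIgfbp5 and 359 ± 10.9 CPM with sgScr (-2.62 ± 0.07; edgeR adjusted p = 1.68e-10). Fgfr2 averaged 17.5 ± 0.126 CPM in relapsed and 7.59 ± 0.581 CPM in control tumours (1.21 ± 0.11; edgeR adjusted p = 1.39e-10) and was at -1.14 ± 0.10 with sgIgfbp5. The adaptor Frs2 was not called at relapse (-0.09 ± 0.04; edgeR adjusted p = 0.0816), though it was called lower in 5 of 15 alternatives, and rose by 0.39 ± 0.09 with sgIgfbp5. Of 28 tested genes of FGF receptor signalling, 10 rose and 12 fell at relapse (median -0.04), and 9 rose and 12 fell with sgIgfbp5 (median -0.05). The ligand Fgf7 rose to 216 ± 2.44 CPM in relapsed tumours, against 66.7 ± 2.22 CPM in control tumours. Spry1, a feedback inhibitor of the pathway, fell to 4.99 ± 0.234 CPM in relapsed tumours, against 62.4 ± 5.0 CPM in control tumours, and rose to 29.3 ± 0.49 CPM with sgIgfbp5, against 5.55 ± 0.52 CPM with sgScr. Tacc3, a mitotic gene known as a fusion partner of FGFR3 in human bladder cancer, was at -2.20 ± 0.08 with sgIgfbp5.

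Pik3ca (ENSMUSG00000027665.14; chromosome 3, 32397671 to 32468486, plus strand) had 65.1, 65.9 and 67.0 CPM in relapsed tumours, against 116, 124 and 112 CPM in control tumours. The groups stood well apart, with a log2 fold change of -0.83 ± 0.05 (edgeR adjusted p = 6.66e-15). With sgIgfbp5 it had 65.5, 51.8 and 63.2 CPM, against 65.4, 62.3 and 56.8 CPM with sgScr, and the groups overlapped. The log2 fold change of -0.03 ± 0.10 was not called (edgeR adjusted p = 0.79). On TPM the fall at relapse was smaller, -0.35 on log2(TPM + 1), and was not called (limma adjusted p = 0.222), because gene TPM was 14.4, 29.4 and 24.3 in relapsed and 27.6, 29.5 and 27.3 in control tumours.

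The difference between the scales came from a single short transcript, which was singled out after its values were seen. Pik3ca-204, a 440-base transcript annotated as a retained intron, had 0, 31.2 and 20.3 estimated counts in relapsed tumours and 0 in every control tumour, yet 0, 15.1 and 9.88 TPM in relapsed tumours. Its 2 exons hold 420 bases that are also exonic in the main isoform Pik3ca-203 and 20 bases that are intronic there. Only those 20 bases and the boundary set it apart by sequence, and they are in capitals below with the 30 exonic bases that follow in lower case (GENCODE M21, chr3:32461677-32461726 on GRCm38, plus strand).
Pik3ca-204 start: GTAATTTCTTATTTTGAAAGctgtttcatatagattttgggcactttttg
In protein-coding transcripts alone, an alternative added after seeing the data, Pik3ca had 14.4, 14.2 and 14.4 TPM in relapsed and 27.6, 29.5 and 27.3 TPM in control tumours. The fall was then -0.92 on log2(TPM + 1) (limma adjusted p = 3.11e-06), close to the count-based value. Pik3ca-203 carried 94.6% ± 4.1 of the counts in relapsed and 97.9% ± 1.14 in control tumours and fell by 0.88 ± 0.05 (edgeR adjusted p = 7.56e-05).

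Pik3cb, which encodes the p110 beta catalytic subunit, fell with Pik3ca at relapse, by 0.78 ± 0.06 (edgeR adjusted p = 2.76e-12), while the regulatory subunit Pik3r1 rose. Pik3r1 averaged 116 ± 2.54 CPM in relapsed and 53 ± 3.57 CPM in control tumours (log2 fold change 1.13 ± 0.05; edgeR adjusted p = 2.79e-17), and 44.5 ± 4.29 CPM with sgIgfbp5 and 112 ± 9.95 CPM with sgScr (-1.33 ± 0.10; edgeR adjusted p = 2.61e-07). Pik3cb was at 0.27 ± 0.08 with sgIgfbp5 (edgeR adjusted p = 0.0142), a call lost in 5 of 15 alternatives. Of 19 tested PI3K genes, 4 rose and 11 fell at relapse (median -0.30), and 10 rose and 4 fell with sgIgfbp5 (median 0.25). Akt1, a kinase downstream, averaged 514 ± 3.1 CPM in relapsed and 239 ± 10.9 CPM in control tumours, and 381 ± 26.4 CPM with sgIgfbp5 and 626 ± 29.0 CPM with sgScr. Pik3ip1, an inhibitor of the pathway, was at 2.04 ± 0.16 with sgIgfbp5.

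Tsc1 (ENSMUSG00000026812.17; chromosome 2, 28641228 to 28691167, plus strand) had 36.0, 30.5 and 33.6 CPM in relapsed tumours, against 52.6, 46.3 and 49.0 CPM in control tumours, with no overlap. The log2 fold change was -0.56 ± 0.07 (edgeR adjusted p = 7.79e-08). With sgIgfbp5 it had 48.7, 50.5 and 58.1 CPM, against 38.6, 34.2 and 30.8 CPM with sgScr, the smallest of the 6 rises at 0.60 ± 0.10 (edgeR adjusted p = 0.0003). Its counts were divided between Tsc1-201, with 68.1% ± 9.17 in relapsed and 67.6% ± 3.91 in control tumours, and Tsc1-202, with 22% ± 6.33 in relapsed and 27.9% ± 9.87 in control tumours. Tsc1-201 fell by 0.56 ± 0.09 (edgeR adjusted p = 0.00462), and Tsc1-202 was not called (-0.91 ± 0.42; edgeR adjusted p = 0.162).

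The other subunits of the TSC complex were measured beside Tsc1. Tsc2, whose product holds the GTPase activating domain, averaged 87.2 ± 2.05 CPM in relapsed and 103 ± 8.14 CPM in control tumours (log2 fold change -0.24 ± 0.05; edgeR adjusted p = 0.000159; call lost in 3 of 15 alternatives) and was not called with sgIgfbp5 (0.18 ± 0.09; edgeR adjusted p = 0.0875), where 3 of 15 alternatives called it higher. The third subunit, Tbc1d7, was called in neither comparison (edgeR adjusted p = 0.0502 and 0.721), but at relapse it was called lower in 5 of 15 alternatives, with log2 fold changes down to -0.34. Rheb, the small GTPase that the complex switches off, fell by 0.53 ± 0.04 at relapse and rose by 0.42 ± 0.08 with sgIgfbp5 (edgeR adjusted p = 2.96e-12 and 0.000907). Of 21 tested genes of the TSC and mTOR list, 4 rose and 11 fell at relapse (median -0.24), and 10 rose and 3 fell with sgIgfbp5 (median 0.26). Lamtor1, which anchors mTORC1 activation at the lysosome, was at 1.16 ± 0.05 at relapse and -0.74 ± 0.09 with sgIgfbp5. Deptor, an mTOR inhibitor, was at -1.90 ± 0.11 at relapse and 1.88 ± 0.17 with sgIgfbp5.

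**Figure D3:**
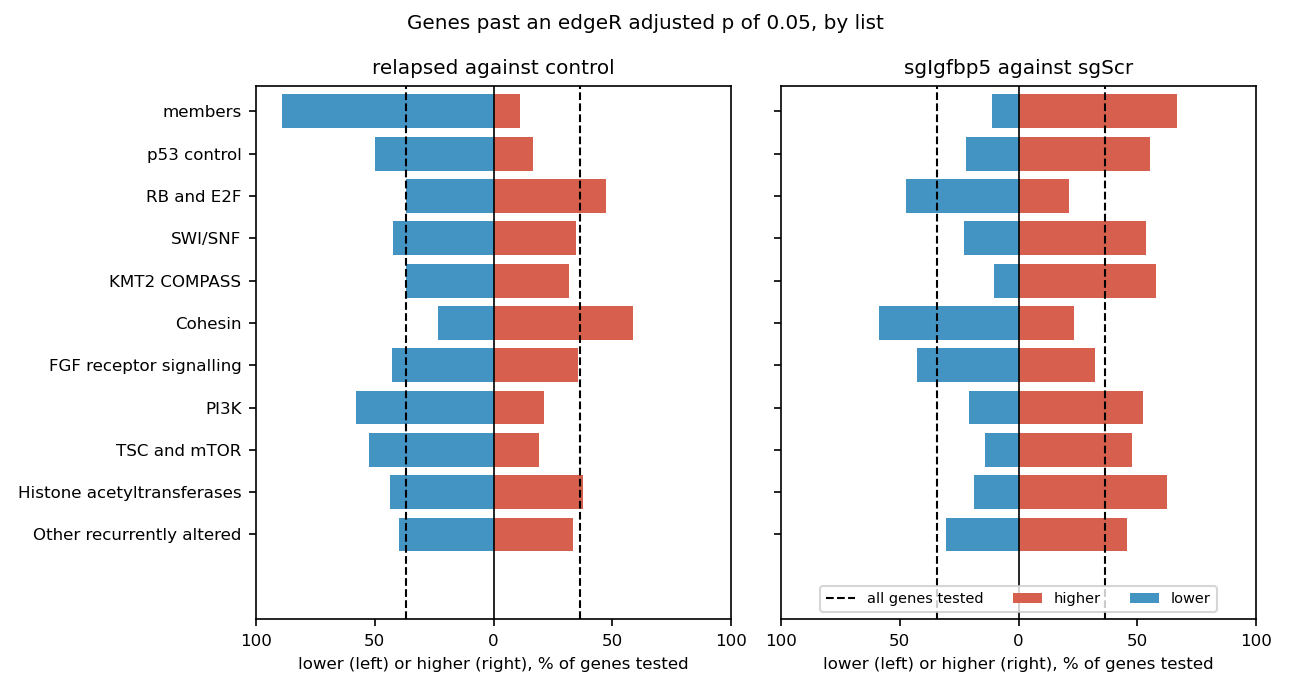
Share of tested genes that passed an edgeR adjusted p of 0.05, higher to the right and lower to the left, for the 9 genes (members) and 10 lists around them, with the shares over all genes tested as dashed lines. Of the cohesin genes, Stag2 included, 10 of 17 were higher at relapse and 10 of 17 lower with sgIgfbp5; of the 9 genes, 8 were lower at relapse.

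Over all 27 partners, 10 rose and 11 fell at relapse (median log2 fold change -0.04), and 12 rose and 10 fell with sgIgfbp5 (median 0.24). Among all genes tested, 36.6% rose and 36.9% fell at relapse, and 36.5% rose and 34.3% fell with sgIgfbp5. Of the 19 partners called in both comparisons, 17 (89.5%) went in opposite directions, close to the 83.4% of all 7947 genes called in both. Of 45 other recurrently altered bladder cancer genes tested at relapse, 15 rose and 18 fell (median -0.04), with Ctnnb1, or beta-catenin, at 0.96 ± 0.03 and the antiproliferative p53 target Btg2 at -2.31 ± 0.09. Of 46 tested in CUUC-G, 21 rose and 14 fell (median 0.16), with Txnip, which binds thioredoxin, at 3.26 ± 0.07 and Ctnnb1 at -1.32 ± 0.07.

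Of the 73 transcripts of the 9 genes, 23 had no counts in any tumour library and 22 passed the filter on low counts. In the transcript fit 8 of the 22 were called, all lower in relapsed tumours, against 32.5% of 32281 transcripts tested. These 8 were Trp53-201, Trp53-202, Rb1-201, Arid1a-205, Kmt2d-201, Ep300-201, Pik3ca-203 and Tsc1-201, and all encode protein. In simulated counts the transcript fit recovered 16 of 50 transcripts changed 2-fold and 34 of 50 changed 8-fold. Changes were placed only in transcripts with an expected mean of at least 50 counts per library, so recovery of scarcer ones was not tested. A transcript that was not called may therefore still have changed. Of 21 transcripts whose share of their gene could be tested, 0 were called by edgeR diffSpliceDGE and 0 had an unadjusted p under 0.05, against 1.73% called over 26254 transcripts. The share test has little power here: in simulated counts it recovered 13 of 42 transcripts changed 8-fold and 0 of 39 changed 2-fold, so shifts of that size were mostly not detectable. It also made 22 false calls there, which limits the share called over all transcripts.

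**Figure D4:**
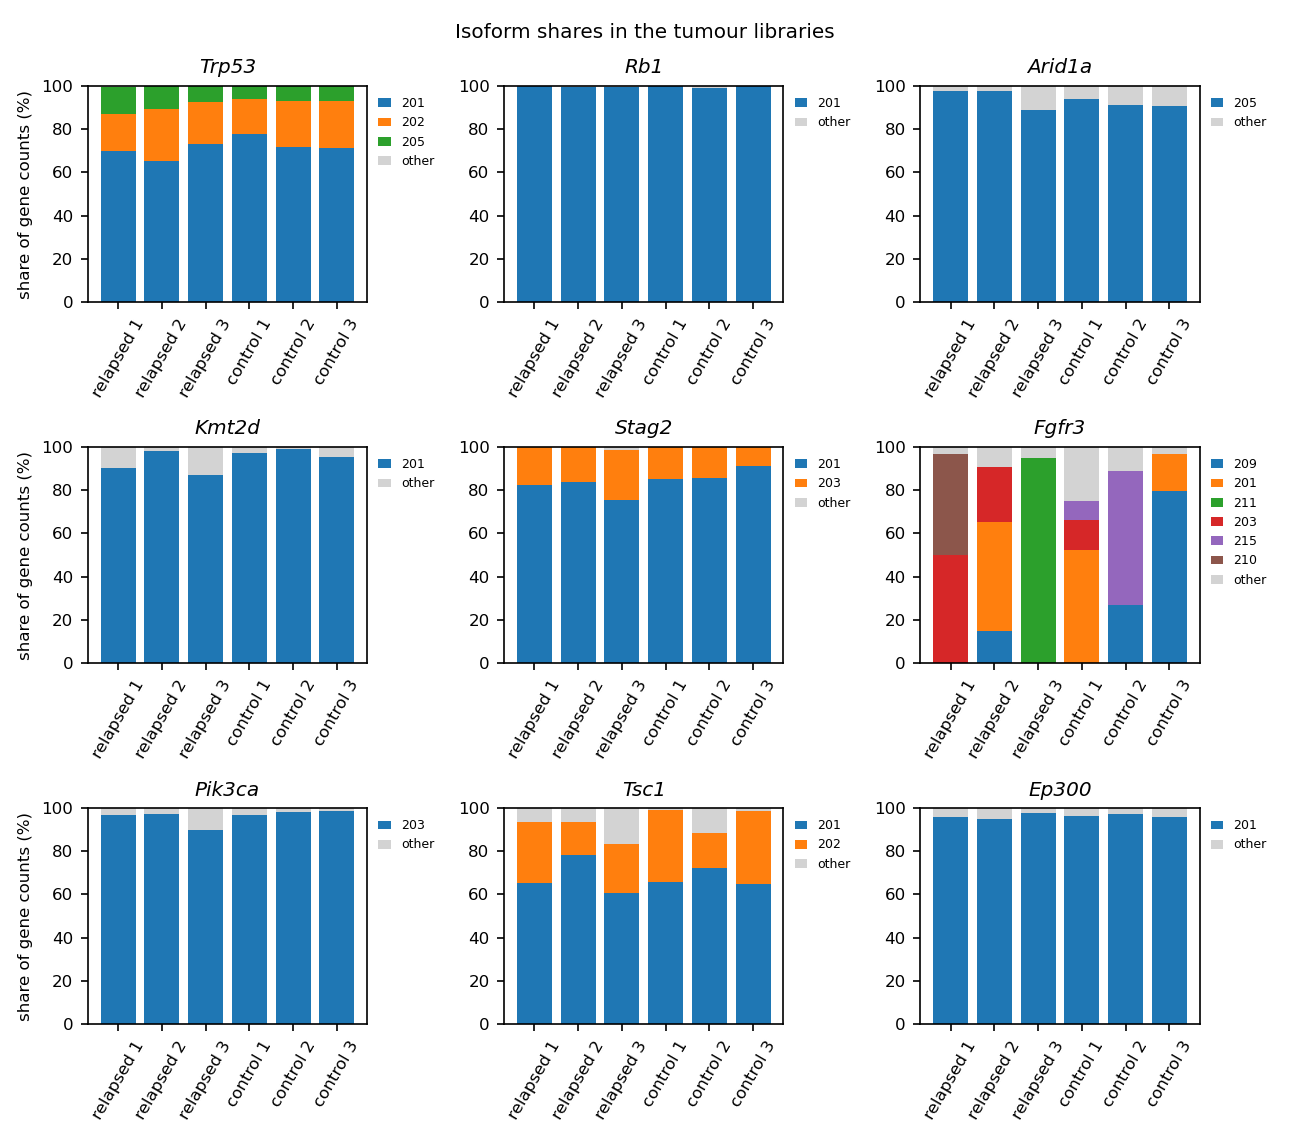
Share of each gene's estimated counts (%) by isoform in the 6 tumour libraries, relapsed on the left and control on the right of each panel; isoforms under 10% in both groups are summed as other. Trp53-202 holds 20.4% on average in relapsed and 19.5% in control tumours, and Fgfr3 has no isoform that leads in every library of a group.

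Across the 12 mouse libraries, the gene with the profile nearest to each of the 9 genes was found by Euclidean distance in log2 CPM centred within each table, among 10500 genes with a mean log2 CPM of at least 2 in both tables. The smallest distances were 0.15 for Arid1a, whose nearest gene was the transcription factor gene Foxk1, and for Pik3ca, nearest to Esyt2. Tsc1 was nearest to Arhgap17 at 0.19, Stag2 to Mphosph8 at 0.20, and Trp53 to Endov and Ep300 to Hectd4 at 0.22. Kmt2d was nearest to Lama5, a laminin chain, at 0.26. The farthest were Rb1, nearest to Lims1 at 0.42, and Fgfr3, below the level asked of the others, nearest to Plekhh3 at 0.55. Endov, for example, had log2 fold changes of -1.06 at relapse and 2.20 with sgIgfbp5, and Mphosph8 of 0.20 and -0.67. The 12 libraries include the same groups that the comparisons contrast, so likeness mostly restates the differences between groups.

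**Figure D5:**
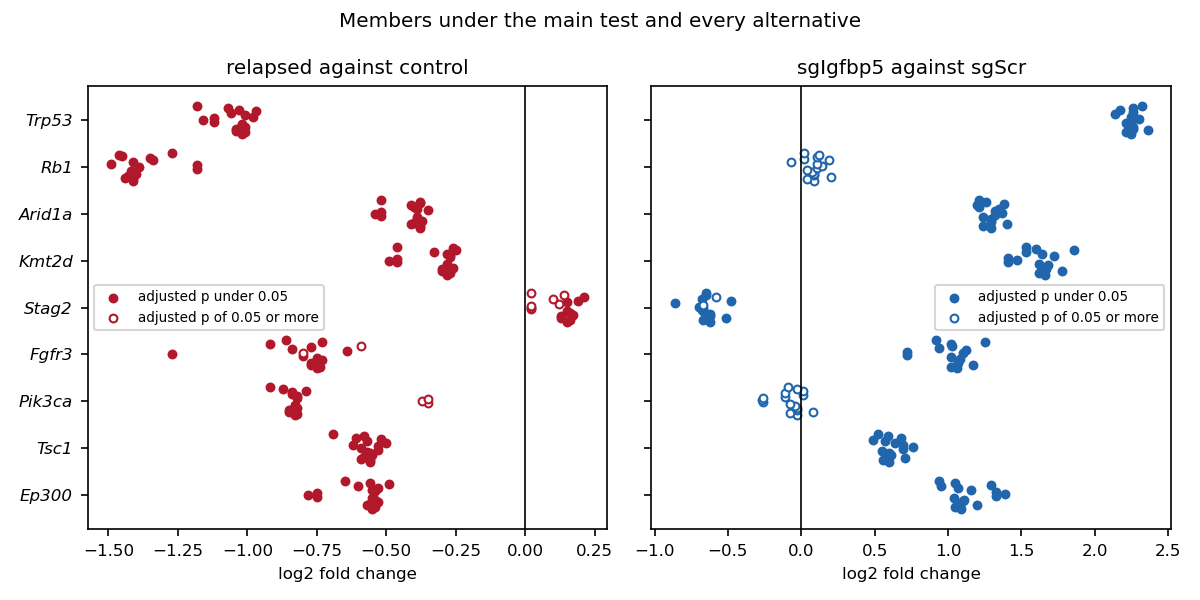
Log2 fold change of each of the 9 genes under the main test and each alternative, filled where the adjusted p was under 0.05. Stag2 lies between 0.02 and 0.21 at relapse and Pik3ca between -0.92 and -0.35, while Trp53 keeps its call in all settings of both comparisons.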

How the data were processed

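Poly(A)-selected RNA was sequenced with a stranded kit, per the labels' protocols. Per the submitters' processing notes, the tool was Salmon (no version given), and GRCm38 (mm10) and GRCh38 (hg38) are listed as builds with no role. Estimated counts and TPM, both made by the authors, were deposited per transcript for the tumours and per gene for CUUC-G. Tumour transcripts were summed here by gene identifier, and estimated counts were rounded. In CUUC-G, 153 values have a count of 0 beside a TPM above 0, which marks its whole numbers as rounded estimates. Columns marked mI were taken as sgIgfbp5; the table does not spell this out. Columns matched to no sample numbered 0. The human libraries were left out. Labels gave the groups and the replicate numbers. Positions and transcripts came from GENCODE M21 on GRCm38; the identifier versions in the deposited files are later ones.

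Differences were tested two-sided by quasi-likelihood F tests in edgeR 4.0.16 (R 4.3.3), with TMM scaling, filterByExpr, robust dispersion and Benjamini-Hochberg adjustment over all features of the table, at 0.05. Standard errors are the absolute log2 fold change over the square root of F. Isoform shares were tested with diffSpliceDGE. Alternatives tried were DESeq2 1.42.0, scaling by RLE factors or by library size alone, no count filter, at least 1 CPM in 3 libraries, limma 3.58.1 on log2(TPM + 1) and log2(TPM + 0.1), the replicate number as a block, and each library left out. In simulated counts with most genes unchanged, edgeR recovered 49 of 50 genes changed 2-fold at relapse (14099 genes) and 48 of 50 in CUUC-G (14275 genes). In the data 73.5% and 70.8% of genes were called, so the simulation does not test the scaling there. The transcript fit recovered 16 of 50 transcripts changed 2-fold and 34 of 50 changed 8-fold. The share test, diffSpliceDGE, made 22 false calls among 23544 transcripts. It recovered 7 of 44 transcripts changed 4-fold and 13 of 42 changed 8-fold, so a single share call is not reliable. Replicates of a group differed by more than sampling noise, so none were merged.

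The 9 genes, their 27 partners and the gene lists were chosen with earlier results of these data known. Named were the 9 genes, the partners, per list and comparison the gene with the smallest adjusted p in each direction, the nearest profile of each gene, and isoforms with at least 10% of a gene or the largest shift in share. Some genes that this rule names are not reported here.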

Additional observations from a re-analysis of the deposited data

How the results depend on the processing

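Of the 9 genes, Trp53, Rb1, Arid1a, Kmt2d, Tsc1 and Ep300 kept direction and call at relapse under all 16 alternatives, and Trp53, Arid1a, Kmt2d, Fgfr3, Tsc1 and Ep300 in CUUC-G under all 15. The number of the 9 genes called was 6 to 9 at relapse and 6 to 7 in CUUC-G across alternatives, and 7 to 9 and 6 to 7 with 1 library left out. Over all genes, calls across alternatives ran from 8645 of 13333 tested to 11096 of 25507 at relapse. In CUUC-G they ran from 8629 of 13347 to 11340 of 26297. With 1 library left out they were 10132 to 10496 at relapse and 9466 to 10391 in CUUC-G. Fgfr3 lost its call at relapse on unfiltered log2(TPM + 1) (limma adjusted p = 0.0762), and Stag2 in CUUC-G there too (limma adjusted p = 0.0511); the cause was not tested. Values that changed sign were not called in either setting, apart from Kdm6a: at relapse, Kdm6a was -0.21 on log2(TPM + 1), -0.22 on log2(TPM + 0.1) and -0.21 unfiltered, Cited2 -0.11 on each of these, and Mdm2 -0.02 without control replicate 3 (-0.02 to 0.06 with any 1 library left out). In CUUC-G, Mdm2 was 0.15 on the 3 TPM scales, Pik3ca 0.08 with library size only and 0.01 without sgIgfbp5 replicate 2 or sgScr replicate 1, Rb1 -0.07 without sgIgfbp5 replicate 1, and Tbc1d7 -0.12 without sgIgfbp5 replicate 2. With any 1 library left out these ran from -0.11 to 0.01 for Pik3ca, -0.07 to 0.19 for Rb1 and -0.12 to 0.13 for Tbc1d7. Mdm2, Tsc2 and Crebbp in CUUC-G and E2f1, Frs2 and Tbc1d7 at relapse gained a call in 22 settings together. The share of calls that were higher at relapse was 49.8%, against 40.7% on log2(TPM + 1) (limma, median of all genes -0.12). In CUUC-G it was 51.6% with TMM, 57.9% with library size only (median of all genes 0.17) and 47.4% with DESeq2. Leaving out 1 library gave 0 to 1 called isoform shares among the 9 genes, which were Pik3ca-204, Pik3ca-202 and Ep300-207 in 1 setting each. The replicate numbers did not pair the samples (correlations of deviations 0.0061 to 0.0148 in the tumours and -0.0817 to 0.093 in CUUC-G). With the replicate block, 10472 genes were called at relapse, against 10559 without it, 10037 against 10305 in CUUC-G, 7488 against 10482 transcripts and 306 against 454 isoform shares. Fgfr3, with under 100 counts per tumour library, is limited by depth.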
